A study of Mus musculus with 12 samples.

Results

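Innate lymphoid cells of healthy mouse synovium that the authors annotated as ILC2 were compared with those they annotated as ILC3, within the same animals. The members were the healthy cells of both ILC wells whose annotation starts with ILC2, and those whose annotation starts with ILC3 and that held no UMI (unique molecular identifier, 1 captured RNA molecule) of Cd3d or Cd3e. In experiment 1 these were 1492 cells of 3 hashtagged mice; with the healthy hashtag of experiment 2 there were 2650, of 8042 cells that the authors kept in the series. The series studied ILCs and fibroblasts of ankle and wrist joints in health and in serum transfer arthritis by 10x 3-prime single-cell RNA sequencing. The healthy animals were untreated R5 x R26tdTomato mice aged 8 to 10 weeks, Il5 wt/Cre and R26 tdTom/tdTom. In such R5 fate-map mice the Cre recombinase sits in the Il5 gene and turns on tdTomato for good in any cell that has used that gene. The sort took viable cells positive for CD45 and tdTomato and negative for GR-1, CD11b, CD3, TCRb and TCRgd. Cells of both classes therefore carried the mark of past or present Il5 use, so that an ILC3 without that mark would not be expected in the well. The protocol speaks of 4 animals per well, while each well held 3 hashtags. In experiment 1 the hashtags are named as mouse 1, 2 and 3; how many animals stand behind the healthy hashtag of experiment 2 is not given.

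As background, ILC2 depend on the transcription factors GATA3 and RORα, carry receptors for the alarmins IL-33 (its chain is Il1rl1) and IL-25 (Il17rb), and make IL-5, IL-13 and the growth factor amphiregulin (Areg). ILC3 answer to IL-23 and IL-1β, and make IL-22 and IL-17. A lymphoid-tissue-inducer-like kind of ILC3 carries the chemokine receptor CCR6. In joints, ILC2 are known for dampening arthritis in mouse models, and type 3 cytokines for driving it.

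The numbers of ILC2-annotated cells were 183, 417 and 229 in mice 1, 2 and 3, and the numbers of ILC3-annotated cells 85, 148 and 430. The ILC3 share of these cells was 31.7% in mouse 1 (95% exact binomial interval 26.2 to 37.7%), 26.2% in mouse 2 (22.6 to 30.0%) and 65.3% in mouse 3 (61.5 to 68.9%). Mouse 3 stood apart with the larger ILC3 share. It also held 33 of the ILC3-annotated cells that were left out for Cd3d or Cd3e UMIs, against 0 in mouse 1 and 2 in mouse 2. The healthy hashtag of experiment 2 held 799 ILC2 and 359 ILC3 cells, a share of 31.0%. Summed UMIs per mouse ran from 795046 to 2030655 for ILC2 and from 437743 to 2429529 for ILC3. The median UMI count per cell was 4442 ± 290 in ILC2 and 5152 ± 152 in ILC3 (SD, n = 3 mice), higher in ILC3 in 3 of 3 mice. The median mitochondrial share of UMIs was 5.69% ± 0.206 in ILC2 and 4.79% ± 0.129 in ILC3, lower in ILC3 in 3 of 3 mice. Both differences gave p = 0.25 in a two-sided exact permutation test over pairs, the smallest p that 3 pairs allow. The wells shared 1 cell barcode.

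Checked against their markers, the ILC2 list separated the classes in part. The ILC3 list was mixed, with most members too low to test. Of 14 tested ILC2 markers (of 15), 7 were lower in ILC3 (Il1rl1, Il5, Klrg1, Hs3st1, Il13, Gata3 and Areg), 2 higher (Icos and Il17rb) and 5 not called. Over all genes tested, 9.57% were called lower and 7.23% higher. A further test, DESeq2, called 6 of the 14 lower and 1 higher. The one not tested, Ptgdr2, gave 0 UMIs in ILC2 and 14 in ILC3. Gata3 stood at 1431, 1359 and 1141 CPM (UMIs of the gene per 1e+06 UMIs of the sum) in the ILC2 sums of mice 1, 2 and 3, and at 982, 919 and 930 CPM in the ILC3 sums. Rora stood at 1692 to 2173 CPM in ILC2 and at 1989 to 2460 CPM in ILC3. Both ILC2 regulators were thus present in both classes. Il23r and Il1r1, through which ILC3 sense IL-23 and IL-1β, gave 2 UMIs each in either class of the 3 mice, and Ncr1, Cxcr5 and Cd4 gave none; 3 UMIs, the limit that a count of 0 allows, equal 1.23 to 6.85 CPM over these sums. Il22 gave no UMI in ILC2 of the 3 mice and 14 in ILC3, namely 8, 0 and 6 in mice 1, 2 and 3. Il17a gave 20 UMIs in ILC2 and 22 in ILC3, and Il17re 3 and 1. Il17f gave 3 and 18 UMIs, and Cd163l1 3 and 22, with more CPM of Cd163l1 in ILC3 in 3 of 3 mice. In experiment 2, Il22 gave 1 UMI in ILC2 and 23 in ILC3, Cd163l1 3 and 20, and Il17f 22 and 8. Of the 13 ILC3 markers, 4 had enough counts for a test: Ccr6 and Cxcr6 were higher in ILC3-annotated cells, and Tmem176a and Tmem176b, which are ILC3 markers as well, were lower. The cells are called ILC3 below because their annotation starts with that name.

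The 2 classes differed in 1127 of 6708 genes tested (16.8%; edgeR's quasi-likelihood test with mouse as a block, Benjamini-Hochberg adjusted p of 0.05), of which 485 (7.23% of genes tested) were higher and 642 (9.57%) lower in ILC3. Of these calls, 1067 had the same direction in all 3 mice. The median size of a called change was 0.76 on the log2 scale, and 366 calls reached 1 on that scale, 154 of them higher and 212 lower. DESeq2 called 451 of the same genes, 177 higher and 274 lower, and without mouse 3 edgeR called 301 higher in place of 485. The split between directions depended on the scale: higher calls made up 43.0% here, and 61.3% when every cell weighed the same (mean CPM per cell, limma), a setting that moved the median of all genes to 0.12. The classes are the authors' annotation of these same cells. How they were made is not given, and they may rest on the transcripts tested here. A small p says that a class difference was large against how much that difference varied among these 3 mice, which edgeR moderates across genes. It does not say that the sign repeated in each mouse, and it is no evidence that the classes exist. The plot of the gene lists shows where the called members lay. Counts of called list members below stand against these shares of 7.23% higher and 9.57% lower.

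**Figure D1:**
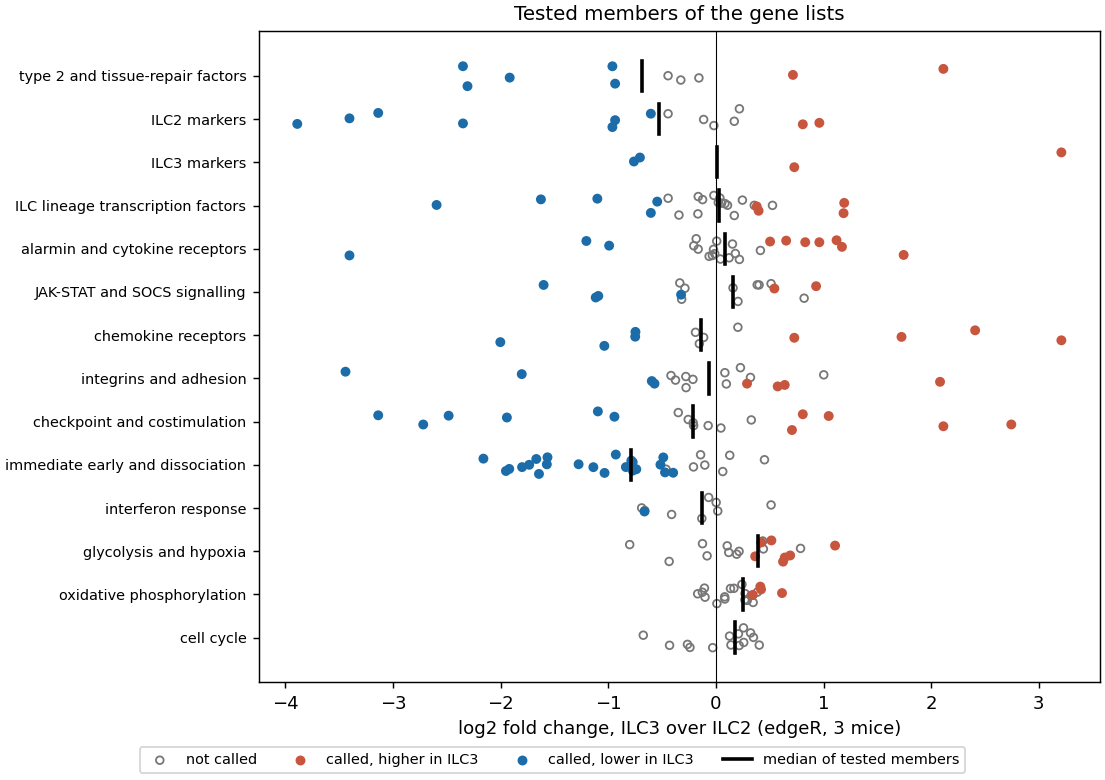
Log2 fold change of ILC3 over ILC2 (horizontal axis; edgeR, 3 mice) for each tested member of 14 gene lists (rows). Filled points passed the adjusted p of 0.05 (red higher, blue lower in ILC3), open points did not, and black bars are medians; the immediate early list has 22 members called lower and 0 called higher, while the glycolysis list has 7 called higher and 0 called lower.

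Secreted type 2 and tissue-repair factors were mostly lower in ILC3. Of 10 tested members, 5 were called lower (Il5, Il13, Areg, Csf2 and Arg1) and 2 higher (Tnfsf8 and Tgfb1), with a median log2 fold change of -0.69, against -0.01 over all genes tested. Il5 (mm10 chr11:53720794-53725106), whose product feeds eosinophils, stood at 551, 977 and 842 CPM in ILC2 of mice 1, 2 and 3, and at 192, 240 and 119 CPM in ILC3. The classes did not overlap, and Il5 was lower in ILC3 by a log2 fold change of -2.35 (SE 0.14, edgeR adjusted p = 5.71e-15). Il13 (chr11:53631324-53634702), which acts on epithelium and macrophages, stood at 603, 688 and 861 CPM in ILC2 and at 407, 407 and 431 CPM in ILC3. Its difference was smaller (log2 fold change -0.94, SE 0.10, edgeR adjusted p = 5.62e-09), with no overlap. Areg stood at 683, 974.6 and 887 CPM in ILC2 and at 605, 330 and 546 CPM in ILC3; its log2 fold change was -0.96, and -0.59 without mouse 2, and DESeq2 did not call it. Arginase 1 (Arg1), which breaks down arginine, fell from 247 ± 53.8 CPM in ILC2 to 55.6 ± 42.8 CPM in ILC3 (log2 fold change -2.31, SE 0.17, edgeR adjusted p = 1.14e-12). Csf2, which codes for the myeloid growth factor GM-CSF, was at 228 ± 65.1 CPM in ILC2 and 79.8 ± 50.9 CPM in ILC3 (log2 fold change -1.92). Calca, which codes for the neuropeptide CGRP, did not pass the test (146 ± 59.9 CPM in ILC2, 118 ± 64.7 CPM in ILC3) and had opposite signs among the mice.

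Among genes with at least 100 CPM in the higher class, the largest falls lay in neutrophil-attracting chemokines. Cxcl1 and Cxcl2, which lie close together on chromosome 5, both code for ligands of CXCR2. Cxcl2 stood at 945, 1454 and 1126 CPM in ILC2 of mice 1, 2 and 3, and at 137, 72.9 and 57.6 CPM in ILC3 (log2 fold change -4.04, SE 0.16, edgeR adjusted p = 2.22e-19). Cxcl1 stood at 240, 86.2 and 26.7 CPM in ILC2, and at 0, 2.56 and 0.82 CPM in ILC3, which held 4 UMIs in all (log2 fold change -5.90, SE 0.37, edgeR adjusted p = 1.80e-14). In both genes the lowest ILC2 mouse lay above the highest ILC3 mouse. Cxcl1 was carried by few cells: 5.35% ± 1.63 of ILC2 and 0.606% ± 0.687 of ILC3 cells had a UMI. Lif, a cytokine of the IL-6 family, was at 170 ± 72.2 CPM in ILC2 and 20.5 ± 9.87 CPM in ILC3. Spry2, which dampens receptor tyrosine kinase signals, was at 227 ± 26.2 and 22.0 ± 11.7 CPM, and Hes1, a target of Notch, at 211 ± 46.9 and 21.4 ± 10.8 CPM. All 3 were called lower, by -3.19, -3.47 and -3.16 on the log2 scale. The promoters of the chemokine pair are shown because both genes fell together and both hold the NF-kB motif (in capitals), as 5.80% of 32851 promoter windows do. The windows run from 250 bases before to 50 after the RefSeq start (GRCm38.p6, plus strand, chr5:90890995-90891294 and chr5:90903649-90903948).
Cxcl1: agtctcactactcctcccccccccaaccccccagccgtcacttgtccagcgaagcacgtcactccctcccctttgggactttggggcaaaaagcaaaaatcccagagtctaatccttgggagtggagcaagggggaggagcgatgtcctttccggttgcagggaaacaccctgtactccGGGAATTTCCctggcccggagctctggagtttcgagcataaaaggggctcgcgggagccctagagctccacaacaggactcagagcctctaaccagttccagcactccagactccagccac
Cxcl2: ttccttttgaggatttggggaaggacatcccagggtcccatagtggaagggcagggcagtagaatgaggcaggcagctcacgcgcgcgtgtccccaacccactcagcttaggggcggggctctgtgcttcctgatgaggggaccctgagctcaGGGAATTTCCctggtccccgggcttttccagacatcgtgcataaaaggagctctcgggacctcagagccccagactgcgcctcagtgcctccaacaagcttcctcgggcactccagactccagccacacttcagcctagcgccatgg
The motif starts 71 bases before the start of Cxcl1 and 97 before that of Cxcl2. Of the 12 genes with the largest falls, 8 had a promoter in the table, and these 2 were the ones that held the motif on either strand. Among 7 windows of the genes with the largest rises, 1 held it too, that of Ccr6. A match describes these letters and shows no binding.

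Receptors for alarmins and cytokines had calls in both directions. Of 24 tested members, 7 were called higher (Tnfrsf1b, Il21r, Il2rb, Tgfbr1, Il18r1, Il6ra and Il17rb) and 3 lower (Il1rl1, Il2ra and Il10ra). The shares over all genes tested were 7.23% higher and 9.57% lower. DESeq2 called 3 of the 24 higher and 2 lower. Il1rl1, the IL-33 receptor chain, stood at 803, 669 and 417 CPM in ILC2 of mice 1, 2 and 3, and at 70.8, 109 and 30.5 CPM in ILC3 (log2 fold change -3.40, SE 0.15, edgeR adjusted p = 4.11e-18). No mouse overlapped. Il2ra, the high-affinity chain of the IL-2 receptor, was at 580 ± 47.9 CPM in ILC2 and 286 ± 57.5 CPM in ILC3 (log2 fold change -1.20). Il2rb, the signalling chain shared by IL-2 and IL-15, went the other way, from 204 to 269 CPM in ILC2 to 335 to 493 CPM in ILC3 (log2 fold change 0.65). In the healthy hashtag of experiment 2, Il2rb was at 251 and 236 CPM (log2 ratio -0.09, 95% counting interval -0.24 to 0.06). Il2ra had a log2 ratio of -0.90 there. The IL-25 receptor Il17rb was at 11.5 ± 3.13 CPM in ILC2 and 28.4 ± 13.0 CPM in ILC3; its log2 fold change of 0.96 was 0.63 without mouse 1 and 0.98 without mouse 2, and it was called in neither case. Il18r1 also lost its call without mouse 1 (0.22 in place of 0.50), and Il6ra without mouse 3 (0.80 in place of 0.83). Tnfrsf1b, a receptor for TNF, stood at 109, 95.0 and 110 CPM in ILC2 and at 260, 231 and 288 CPM in ILC3 (log2 fold change 1.17, SE 0.13, edgeR adjusted p = 1.03e-08). Il7r, the receptor for the survival cytokine IL-7, did not pass the test, at 778 ± 73.6 CPM in ILC2 and 926 ± 38.1 CPM in ILC3. The Il1rl1 promoter window (GRCm38.p6, chr1:40429320-40429619, plus strand) is shown for its GATA motif, spelled AGATAAG and found on either strand in 3.04% of promoter windows.
Il1rl1: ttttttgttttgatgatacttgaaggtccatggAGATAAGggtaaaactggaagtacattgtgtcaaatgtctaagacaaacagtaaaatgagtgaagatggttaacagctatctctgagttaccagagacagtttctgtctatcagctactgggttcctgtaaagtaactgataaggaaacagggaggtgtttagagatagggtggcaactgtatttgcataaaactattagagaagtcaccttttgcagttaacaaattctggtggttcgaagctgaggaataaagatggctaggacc
Among the 8 windows of the genes with the largest falls, it was the only one with that motif, at 217 bases before the start.

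Among 24 tested transcription factors of ILC lineages, 4 were called higher in ILC3 (Tcf7, Irf4, Maf and Ikzf3) and 5 lower (Gata3, Gfi1, Klf2, Bhlhe40 and Bach2). The shares over all genes tested were 7.23% higher and 9.57% lower. DESeq2 called 1 of these factors higher and 4 lower. The Gata3 levels given above amount to a log2 fold change of -0.60 (SE 0.08, edgeR adjusted p = 4.93e-07), with no overlap of the classes. Gfi1, a repressor that ILC2 need, was at 17.2 ± 0.834 CPM in ILC2 and 4.40 ± 2.88 CPM in ILC3; its log2 fold change was -2.59, and -1.67 without mouse 3. Klf2, which governs exit from tissues in lymphocytes, was at 75.2 ± 23.4 and 31.1 ± 5.98 CPM (log2 fold change -1.63). Tcf7, the early ILC factor TCF-1, stood at 76.7, 43.8 and 32.0 CPM in ILC2 and at 105, 116 and 126 CPM in ILC3 (log2 fold change 1.19, SE 0.19, edgeR adjusted p = 1.08e-05). Of these 9 calls, 5 held whichever mouse was left out. Irf4 lost its call without mouse 1 (0.60 in place of 1.19), Bach2 without mouse 3 (-0.83 in place of -1.10) and Ikzf3 without mouse 3 (0.18 in place of 0.40). Maf kept a log2 fold change of 0.38 but lost its call without mouse 2 or mouse 3. In the signalling chain behind cytokine receptors, 4 of 15 tested members were lower in ILC3 (Pim1, Socs2, Stat4 and Cish) and 2 higher (Stat3 and Stat5a), against 3 and 1 in DESeq2. Pim1, a kinase that STAT5 turns on, was at 1494 ± 294 CPM in ILC2 and 784 ± 226 CPM in ILC3, and Socs2, a feedback inhibitor, at 191 ± 35.0 and 65.5 ± 9.28 CPM. Without mouse 3 Cish was at -0.20 in place of -0.32, and without mouse 2 Stat5a was at 0.49 in place of 0.93; neither was then called.

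Several of the genes with the largest rises in ILC3, at the same level of at least 100 CPM, code for surface molecules. Ccr6, the receptor for CCL20, stood at 20.1, 6.40 and 24.0 CPM in ILC2 of mice 1, 2 and 3, and at 194, 133 and 154 CPM in ILC3 (log2 fold change 3.21, SE 0.22, edgeR adjusted p = 1.04e-13). The lowest ILC3 mouse lay well above the highest ILC2 mouse. After each cell was thinned to 2000 UMIs, 2.38% ± 1.75 of ILC2 and 21.8% ± 6.76 of ILC3 cells had a Ccr6 UMI (5.47% ± 3.56 and 39.4% ± 7.82 without thinning). Itgae, the integrin chain CD103 that binds E-cadherin, stood at 93.1, 37.4 and 70.2 CPM in ILC2 and at 347, 240 and 298 CPM in ILC3 (log2 fold change 2.08, SE 0.15, edgeR adjusted p = 2.50e-13). Jaml, an adhesion molecule of the junctional family, stood at 127, 69.9 and 233 CPM in ILC2 and at 756, 551 and 728 CPM in ILC3 (log2 fold change 2.20, SE 0.15, edgeR adjusted p = 1.19e-13). Both adhesion genes were separated in every mouse. The transcriptional cofactor Hopx was at 64.3 ± 9.56 CPM in ILC2 and 411 ± 60.8 CPM in ILC3, and Ctsw, a cathepsin of cytotoxic lymphocytes, at 20.3 ± 3.03 and 177 ± 40.4 CPM. Among TNF family members, Tnfrsf4 (OX40) was at 18.4 ± 2.17 and 138 ± 33.3 CPM and Tnfsf8 (the CD30 ligand) at 52.4 ± 16 and 256 ± 128 CPM. Cd74, the invariant chain of MHC class II, stood at 16.4, 23.6 and 38.2 CPM in ILC2 and at 139, 317 and 145 CPM in ILC3 (log2 fold change 2.81). All 3 tested members of the 8 MHC class II genes were called higher; H2-Aa had a log2 fold change of 2.44, which was 1.26 and not called without mouse 2.

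**Figure D2:**
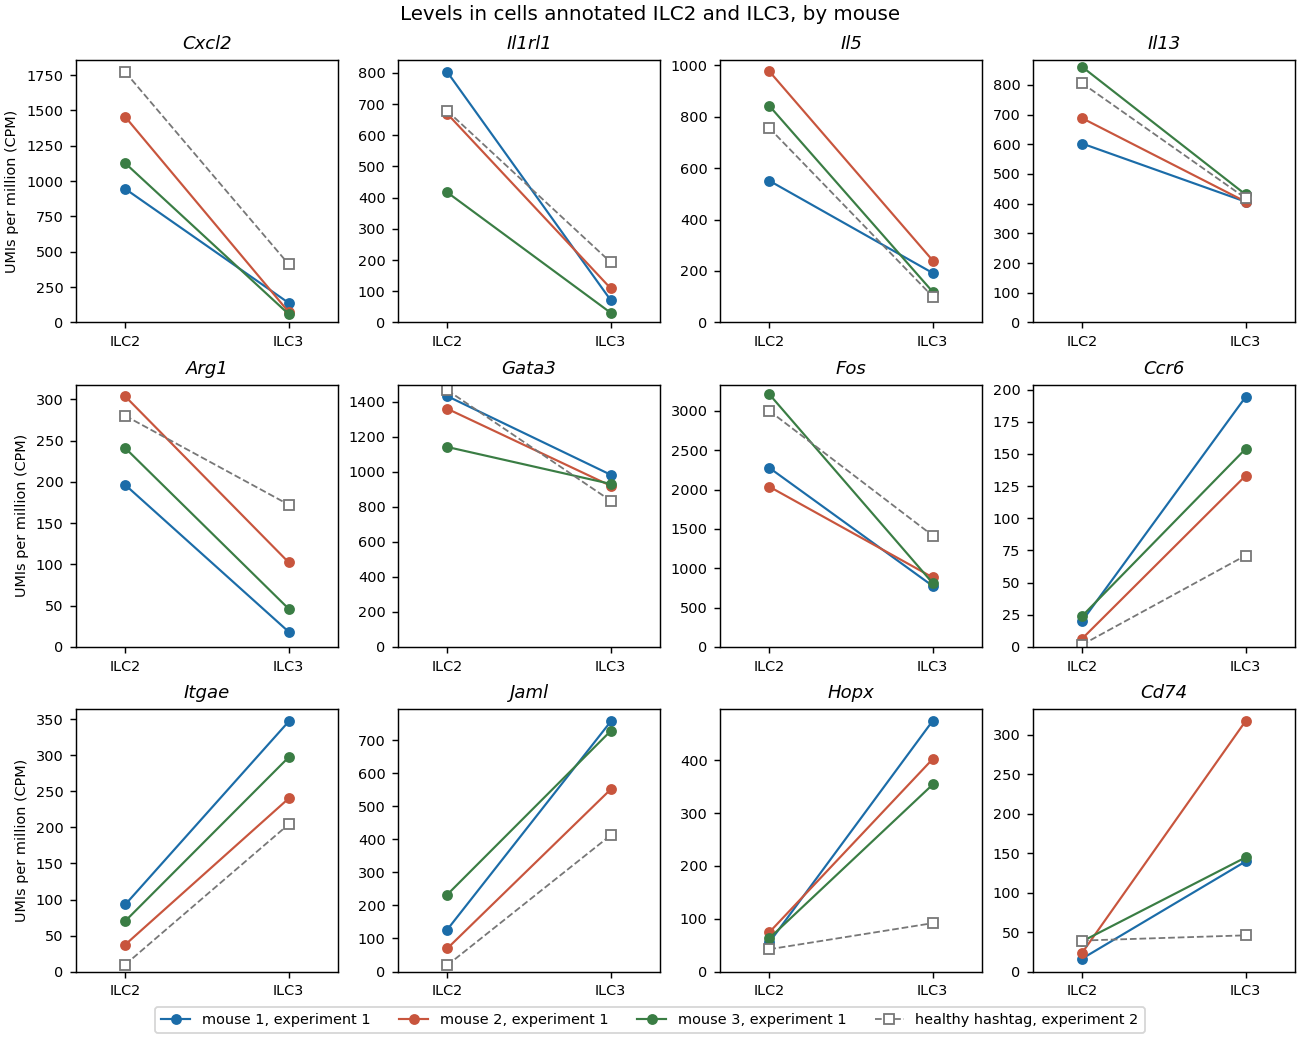
CPM (vertical axes, from 0) of 12 genes in the ILC2 and ILC3 sums. Each solid line joins the classes of 1 mouse of experiment 1, and the dashed line those of the healthy hashtag of experiment 2; Il5 falls from between 551 and 977 to between 119 and 240 CPM in the 3 mice, and Ccr6 rises from at most 24.0 to at least 133 CPM.

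A list of chemokine and other guidance receptors was divided. Of 12 tested members, 4 were higher in ILC3 (Ccr6, Cxcr6, Ccr7 and Cx3cr1) and 4 lower, Ccr2, Gpr183 and S1pr1 among them. Gpr183 and S1pr1, which the list includes, are not chemokine receptors. DESeq2 called 4 higher and 2 lower. Over all genes tested, edgeR called 7.23% higher and 9.57% lower. Ccr2, the receptor for CCL2, which guides cells toward inflamed tissue, stood at 289, 362 and 299 CPM in ILC2 of mice 1, 2 and 3, and at 66.3, 127 and 72.9 CPM in ILC3 (log2 fold change -2.0, SE 0.14, edgeR adjusted p = 1.59e-13). Cxcr6, which marks tissue-resident lymphocytes, was at 517 ± 71.4 CPM in ILC2 and 939 ± 20.2 CPM in ILC3 (log2 fold change 0.73). Cx3cr1 was called without mouse 1 or mouse 2 and was too low to be tested without mouse 3. Among 18 tested integrins and adhesion molecules, 4 were higher (Itgae, Itgal, Cd9 and Cd44) and 4 lower (Cd69, Itga4, Cd81 and Itgb3); DESeq2 called 2 and 2. Cd69, an early activation and retention marker, stood at 1604, 943 and 1413 CPM in ILC2 and at 500, 352 and 391 CPM in ILC3 (log2 fold change -1.80, SE 0.09, edgeR adjusted p = 1.00e-16). Itga4, the α4 integrin chain, was at 34.8 ± 11 CPM in ILC2 and 3.11 ± 4.04 CPM in ILC3, where it gave 10 UMIs. Cd44, Cd9, Cd81 and Itgb3 each lost the call without at least 1 mouse, and Cd81 went from -0.60 to -0.30 without mouse 3. Of 18 tested checkpoint and costimulatory genes, 5 were higher (Tnfrsf4, Tnfsf8, Icos, Cd96 and Tnfrsf9) and 6 lower (Lilrb4a, Klrg1, Cd28, Pdcd1, Cd200r1 and Icosl); DESeq2 called 3 and 4. Icos, a costimulatory receptor on both kinds of ILC, was at 829 ± 44.8 CPM in ILC2 and 1606 ± 136 CPM in ILC3 (log2 fold change 0.81). Klrg1, an inhibitory receptor on mature ILC2, was at 55.2 ± 23.1 and 7.94 ± 5.18 CPM (log2 fold change -3.14). Pdcd1 (PD-1) had a log2 fold change of -2.72, and -4.83 without mouse 2.

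In the glycolysis and oxidative phosphorylation lists, edgeR calls lay in 1 direction, higher in ILC3, and most members were not called. Of 18 tested glycolysis and hypoxia genes, 7 were higher in ILC3 and 0 lower, with a median log2 fold change of 0.39. Over all genes tested, 7.23% were called higher and 9.57% lower. Gapdh stood at 1196, 1174 and 1348 CPM in ILC2 of mice 1, 2 and 3, and at 1704, 1727 and 2064 CPM in ILC3 (log2 fold change 0.42, SE 0.07, edgeR adjusted p = 2.53e-05). Egln3, an oxygen sensor that hypoxia induces, was at 23.4 ± 7.40 CPM in ILC2 and 59.8 ± 14.2 CPM in ILC3. Whichever mouse was left out, 4 of the 7 kept their call (Gapdh, Egln3, Pgk1 and Eno1), while Tpi1, Pgam1 and Pkm did not. DESeq2 called 3 of these 18 higher and limma on means per cell 8, and both called 0 lower; at an unadjusted p under 0.05 edgeR had 9 higher and 1 lower. Of 20 oxidative phosphorylation genes, 4 were called higher and 0 lower by edgeR, with 11 and 0 at an unadjusted p under 0.05. DESeq2 called 0 of these 20 higher and limma on means per cell 10, and of the 4 edgeR calls 1, Uqcrq, stayed with any mouse left out. Fabp5, a fatty acid carrier, was at 47.8 ± 2.44 CPM in ILC2 and 151 ± 28.1 CPM in ILC3 (log2 fold change 1.45, SE 0.16, edgeR adjusted p = 1.10e-08). Of 14 tested cell cycle genes 0 passed the edgeR test, with 2 higher and 2 lower at an unadjusted p under 0.05; DESeq2 called 0 as well, and limma on means per cell called 3 of 10 higher. These counts stand beside more UMIs per cell and a lower mitochondrial share in ILC3, as given above; the part of either in the metabolic genes was not tested.

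Smaller lists had few tested members. Over all genes tested, 7.23% were called higher and 9.57% lower. Of 8 tested lymphoid-tissue-inducer genes, Ccr6 and Cd83 were higher, and Tnfsf11 (the cytokine RANKL), Kit and Nrp1 lower. Tnfsf11 stood at 84.3, 69.4 and 53.3 CPM in ILC2 of mice 1, 2 and 3, and at 29.7, 30.7 and 17.3 CPM in ILC3 (log2 fold change -1.58, SE 0.20, edgeR adjusted p = 2.59e-07). Nrp1 was lower in 2 of 3 mice and lost its call without mouse 3, at -0.70 in place of -1.42. Of 6 tested type 3 and IL-17 factors 4 were lower (Tnfsf11, Gpr183, Tmem176a and Tmem176b); 0 were called higher by edgeR, DESeq2 or limma on means per cell, and at an unadjusted p under 0.05 these had 0, 0 and 2 higher, the last of 8 tested. Among 11 tested receptors and enzymes of neuropeptide, lipid and steroid signals, 2 were higher, the glucocorticoid receptor gene Nr3c1 among them, and 3 lower (Ptgs2, Ptgir and Ltb4r1). Ptgir was lower in 2 of 3 mice and higher in 1. Nr3c1 and Ltb4r1 lost the call without mouse 3 (0.30 in place of 0.43 and -0.48 in place of -0.81), and Ptgir without mouse 2 (-0.53 in place of -0.74); Ptgs2, which gave 58 and 8 UMIs, went from -3.34 to -1.05 without mouse 3. Of 4 tested type 1 and NK genes, Nkg7, Klrk1 and Ccl5 were higher, Ccl5 in 2 of 3 mice and lower in 1. Nkg7, a granule protein, was at 107 ± 22.7 CPM in ILC2 and 210 ± 32.6 CPM in ILC3 (log2 fold change 0.88, SE 0.14, edgeR adjusted p = 7.58e-06), while Klrk1 and Ccl5 lost the call without mouse 2, at 0.33 and 0.10. Of 9 tested interferon response genes 1, Gbp4, was called, lower in ILC3, and not without mouse 3. Of 11 tested lipid genes 1 was higher, Fabp5, and 1 lower.

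Immediate early genes, which stimulation and tissue dissociation switch on within minutes, formed the list with the most calls: 22 of 29 were lower in ILC3 and 0 higher, against 642 of 6708 (9.57%) lower among all genes tested, with a median log2 fold change of -0.79. None was higher at an unadjusted p under 0.05 in edgeR, and DESeq2 and limma on means per cell called 19 and 20 lower and 0 higher. Fos, a subunit of AP-1, stood at 2277, 2037 and 3212 CPM in ILC2 of mice 1, 2 and 3, and at 774, 884 and 810 CPM in ILC3 (log2 fold change -1.73, SE 0.09, edgeR adjusted p = 1.18e-16). Nfkbia, the inhibitor that NF-kB induces against itself, stood at 2333, 1868 and 1981 CPM in ILC2 and at 1039, 642 and 672 CPM in ILC3 (log2 fold change -1.57, SE 0.08, edgeR adjusted p = 1.18e-16). In both genes the classes lay apart in every mouse. The heat shock gene Hspa1a, called lower, stood at 31.4, 168 and 497 CPM in ILC2 and at 18.3, 118 and 308 CPM in ILC3. In experiment 2 it was higher in ILC3 (log2 ratio 0.35, 95% counting interval 0.29 to 0.41), as was Hspa1b (0.44, interval 0.35 to 0.52). Whichever mouse was left out, 19 of the 22 stayed called; Junb, Jund and Klf4 lost the call without mouse 3, at -0.23, -0.40 and -0.23. Of 25 members with a promoter window, 8 held the NF-kB motif (Egr2, Fos, Fosb, Fosl2, Nfkbia, Nr4a1, Rel and Tnfaip3). Egr2, Fosl2 and Rel were not called. Over all promoter windows 5.80% held the motif. The mitochondrial share and the depth per cell differed between the classes in the same mice, and their part in this list was not tested. Both classes of a mouse shared 1 well.

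The authors divided the classes further, into ILC2-1, ILC2-2 and ILC2-3 and into ILC3-1 and ILC3-2, and levels varied within a class too. Both ILC3 subclasses lay above all 3 ILC2 subclasses, or below them, for 596 of the 1127 called genes, 52.9%. The share was 26.1% of all genes tested and 20.7% of those not called. The same cells gave the calls, so the larger share among called genes is in part built in. With the 3 mice summed, Il1rl1 was at 382, 506 and 1095 CPM in ILC2-1, ILC2-2 and ILC2-3, and at 125 and 16 CPM in ILC3-1 and ILC3-2. Ccr6 was at 32.8, 10.3 and 3.0 CPM in the ILC2 subclasses and at 114 and 175 CPM in the ILC3 subclasses. Jaml and Itgae, like these, were separated without overlap. Il5 was not: it was at 51.7, 526 and 2289 CPM in ILC2-1, ILC2-2 and ILC2-3, and at 67.1 and 196 CPM in ILC3-1 and ILC3-2. ILC2-1 thus held less Il5 than either ILC3 subclass. Fos ran against Il5, at 7578, 908 and 177 CPM in the ILC2 subclasses and 1558 and 458 CPM in the ILC3 subclasses, so that ILC2-3 held less than either ILC3 subclass. Of the 22 immediate early genes called lower, 6 were separated by subclass, against 52.9% of all called genes. Icos and Cxcr6 were highest in ILC2-3 and ILC3-2, at 1493 and 2154 CPM for Icos and at 1173 and 1229 CPM for Cxcr6. The makeup of a class varied by mouse: ILC2-1 made up 21.6 to 41.5% of ILC2 cells, and ILC3-2 52.7 to 65.6% of ILC3 cells. The median UMI count per cell was also highest in ILC2-3 (5255 to 6285) and ILC3-2 (5309 to 5698) of the 3 mice.

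**Figure D3:**
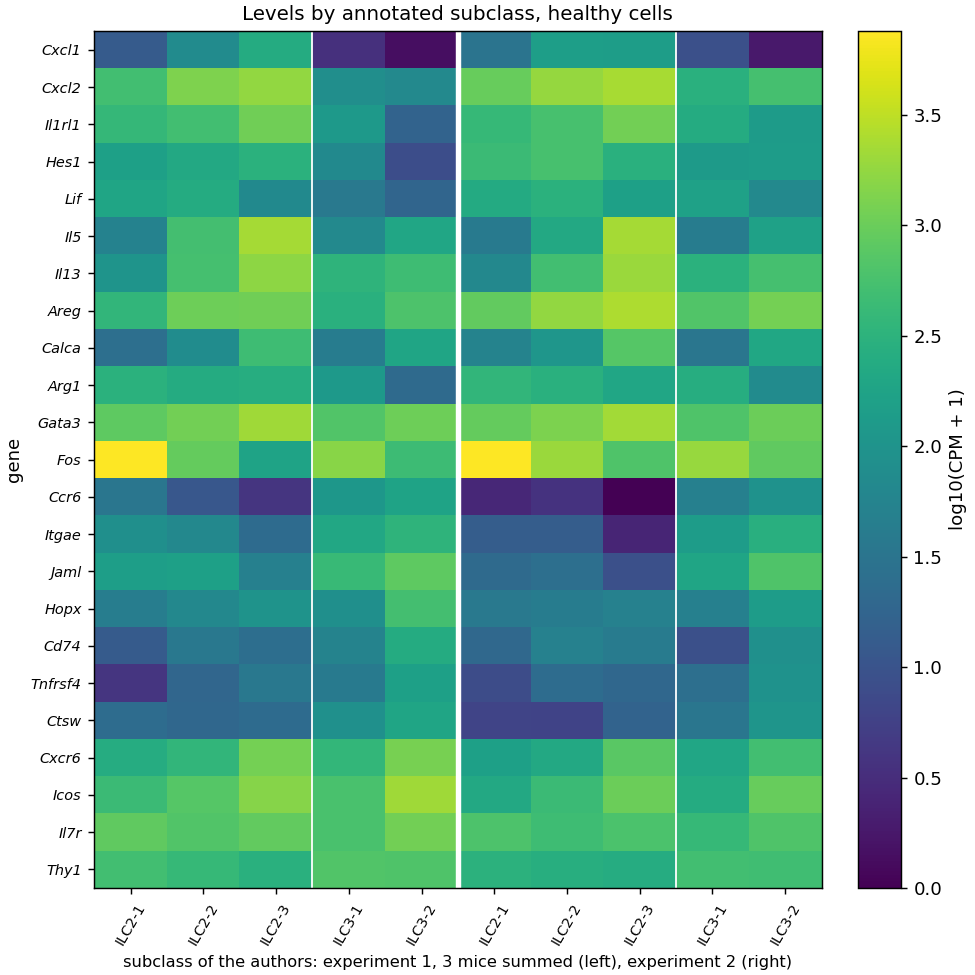
Level of 23 genes (rows) by annotated subclass (columns) as log10(CPM + 1), with the 3 mice of experiment 1 summed on the left and the healthy hashtag of experiment 2 on the right. Cxcl2, Il1rl1, Ccr6, Itgae and Jaml separate the classes in both experiments, while Il5 is highest in ILC2-3 (2289 and 2310 CPM) and Fos in ILC2-1 (7578 and 7525 CPM).

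The healthy hashtag of experiment 2, which was no part of the edgeR test above, went the same way for most calls. Its cells carry class names from the same annotation by the authors. A shared direction is therefore in part built in and is no independent check of the classes. Of 1126 called genes with UMIs in both classes there, 1007 (89.4%) had the same direction, against 62.0% of genes not called. The sizes were smaller. Genes called higher had a median log2 fold change of 0.77 in experiment 1 and a median log2 CPM ratio of 0.56 in experiment 2. For genes called lower these were -0.75 and -0.38. The genes were chosen by their experiment 1 values, so a smaller size in experiment 2 is in part built in. A fitted fold change also stands here beside a plain CPM ratio. Il5 was at 756 CPM in ILC2 and 99.98 CPM in ILC3 of experiment 2, a log2 ratio of -2.92 (95% counting interval -3.11 to -2.73). Ccr6 was at 1.73 and 71.1 CPM (log2 ratio 5.36, interval 4.35 to 6.60). Jaml and Itgae had log2 ratios of 4.43 and 4.40, larger than in experiment 1, where ILC2 held more of both. The ratio of Cxcl2 was smaller, -2.11 (interval -2.21 to -2.01), with 411 CPM in ILC3. Hopx was at 42.3 and 91.7 CPM, and Cd74 at 39.2 and 45.9 CPM with an interval of the log2 ratio that includes 0 (-0.13 to 0.57). Icos and Cxcr6, which were called higher in experiment 1, had log2 ratios of 0.10 and -0.03 there. Stat3 and Tnfrsf9, called higher, and Cd81, called lower, went the other way, with log2 ratios of -0.21, -0.51 and 0.20. The intervals cover counting error in 1 hashtag and no difference between animals.

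**Figure D4:**
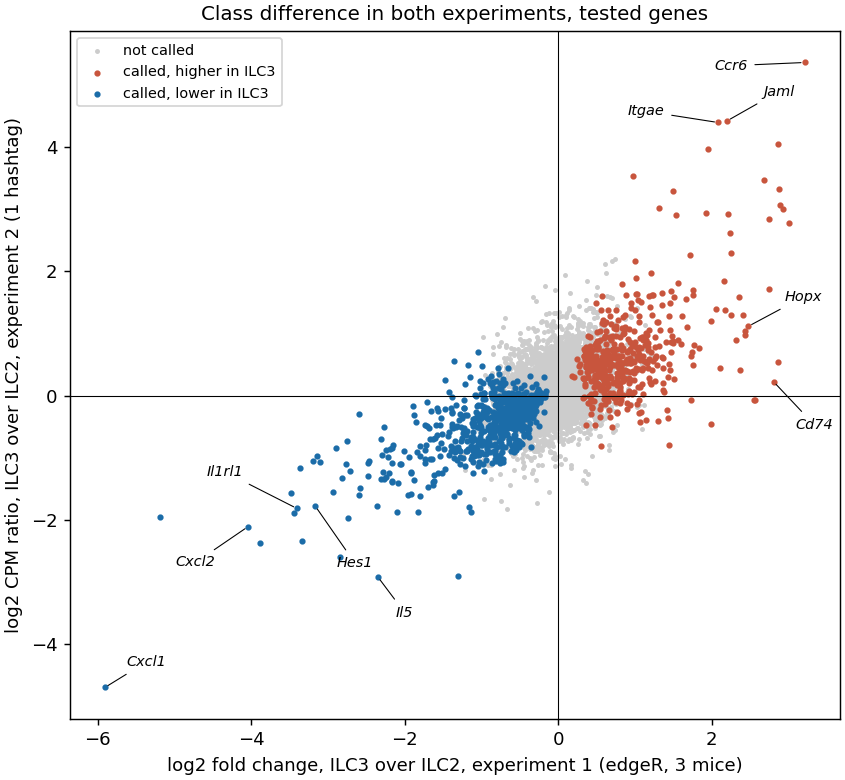
Log2 fold change of ILC3 over ILC2 in the 3 mice of experiment 1 (horizontal axis) against the log2 CPM ratio in the healthy hashtag of experiment 2 (vertical axis), 1 point per gene tested with UMIs in both classes. Genes called higher (red) and lower (blue) in ILC3 keep their sign in 89.7% and 89.3% of cases; Ccr6 and Cxcl1 lie at the ends, and Cd74 lies near 0 in experiment 2.

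Both classes of a mouse were read in 1 well, and the part of free RNA in these levels was not tested. The level in ILC3 as a percent of that in ILC2 was 0 to 3.09% per mouse for Cxcl1, 5.01 to 14.5% for Cxcl2, 7.31 to 16.3% for Il1rl1, 14.1 to 34.8% for Il5, 50.1 to 67.5% for Il13 and 67.6 to 81.5% for Gata3. Shares of cells with a UMI followed the sums for Il1rl1, at 55.5% ± 11.3 of ILC2 and 11.1% ± 7.52 of ILC3 cells after thinning to 2000 UMIs. For Il13 they did not: 27.1% ± 1.85 of ILC2 and 26.8% ± 6.32 of ILC3 cells had a UMI at that depth, while the summed level was lower in ILC3. Without thinning the shares were 68.4% ± 12.8 and 17.2% ± 10.0 for Il1rl1 and 34.7% ± 2.13 and 40.2% ± 12 for Il13. No class known to lack these genes was annotated in the well, so the share that free RNA alone would give was not measured.

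The lists of other cell types differed in level. Of the fibroblast list none was tested, and its summed level was 14.8 to 23.9 CPM in ILC2 and 8.95 to 12.4 CPM in ILC3. The myeloid list had 7 of 14 genes at 0 UMIs, Csf1r and Adgre1 among them, and summed to 174 to 209 CPM in ILC2 and 256 to 295 CPM in ILC3. Its 1 tested gene, Cst3, was higher in ILC3 but lost the call without mouse 2 or mouse 3. The dendritic cell list had 4 of 8 genes at 0, including Flt3, Itgax and Clec9a, and summed to 17.6 to 22.2 CPM in ILC2 and 38.3 to 58.8 CPM in ILC3, H2-Aa being its called member; this stands beside the MHC class II genes, and its part in them was not tested. The mast cell list summed to 288 to 384 CPM in ILC2 and 176 to 239 CPM in ILC3. Of its 10 genes 3 were at 0 (Fcer1a, Ms4a2 and Mrgprb1), and the 1 tested, Kit, which ILCs carry as well, was lower in ILC3 (log2 fold change -0.82). Among B cell and endothelial genes 1 each was tested, Ighm (-1.60) and Pecam1 (-1.16), and both were called lower. Pecam1 was lower in 2 of 3 mice and lost its call without mouse 2 or mouse 3, while Cd79a, Ms4a1, Cdh5 and Kdr were at 0. Hba-a1, the 1 tested erythrocyte gene, did not pass the test, at 56.5 ± 32.1 CPM in ILC2 and 65.8 ± 31.4 CPM in ILC3. Of 17 T cell markers 7 were tested, and Cd3g, Lat and Trdc were higher in ILC3. Cd3g stood at 70.4, 36.0 and 56.0 CPM in ILC2 and at 149, 107 and 146 CPM in ILC3 (log2 fold change 1.22, SE 0.16, edgeR adjusted p = 3.78e-07). Cd3d and Cd3e were at 0 in ILC3 because the rule removed such cells, Cd4, Cd6 and Cd8b1 gave no UMI in either class, and Cd5 gave 1. The summed T cell list was 909 to 1113 CPM in ILC2 and 1042 to 1165 CPM in ILC3. Of the gamma-delta T cell list, 5830411N06Rik and Trdc were higher and Trdv4 lower, and Sox13 was at 0. Cd163l1, given above among the ILC3 markers, is on this list too. It was too low to test, with 3 UMIs in ILC2 and 22 in ILC3, and higher in ILC3 in 3 of 3 mice. Trdc lost its call without mouse 1, and Lat without mouse 2 or mouse 3. The part of T cells in the ILC3 sums was not tested beyond the removal of cells with Cd3d or Cd3e UMIs; with those cells kept in, 1142 genes were called.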

How the data were processed

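The authors deposited raw UMI counts per gene and cell, made on mm10 with Cell Ranger, whose version is 6.1.2 in the headers and 6.0.6 in the submitters' processing notes, and a table of kept cells with UMI counts, a mitochondrial fraction, a hashtag margin score, hashtag calls and classes. How the fraction, the score and the classes in the deposited table were made is not given in the sources used here. All 2938 healthy cells matched a barcode, and their matrix sums equalled the deposited UMI counts. No doublet caller was run; the cells the authors kept were used.

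UMIs were summed per mouse and class and compared with edgeR 4.0.16 in R 4.3.3 (quasi-likelihood test, mouse as a block, TMM scaling, genes kept by filterByExpr, Benjamini-Hochberg adjusted p of 0.05), after a test on simulated data. The block is the animal: both classes of a number carry 1 hashtag, and their deviations from the class means correlated at 0.49 to 0.60 over 1260 genes. CPM are a gene's UMIs per 1e+06 UMIs of a sum. The standard error (SE) is the log2 fold change divided by the root of the F statistic. Intervals for 1 hashtag or a share are exact at 95% and cover counting error. Whether the hashtagged mice are litter mates is not given. The p-values rest on how the class difference varied among these 3 animals. Gene positions came from GENCODE M21 and promoters from RefSeq. Some genes that the rules pick are not reported here, while counts keep them. Motif counts ran over windows on both strands.

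The named genes are the 12 with the largest called change in each direction (same sign in 3 mice, at least 100 CPM and 30 UMIs in the higher class; sex-linked, mitochondrial, ribosomal, immunoglobulin, T cell receptor and predicted genes left out), up to 4 called members of each of 29 lists by lowest p (or the 2 highest where none was called), and 15 genes always given. Members and lists were chosen with earlier results of these data known, and other list members in the text after their values were seen. Alternatives were DESeq2 1.42.0, upper-quartile factors, no filter, no block, each mouse left out, other treatment of cells with Cd3 UMIs, thinned sums, limma 3.58.1 on log2(mean CPM per cell + 1) with a minimum of 10 CPM, and the hashtag of experiment 2 as a further pair. Python 3.11.15, numpy 2.4.6, pandas 2.3.3, scipy 1.17.1 and matplotlib 3.10.9 were used. The arthritis and fibroblast cells of the series were not used.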

Additional observations from a re-analysis of the deposited data

Results flagged for a closer look

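Stat3, which carries signals of IL-6 and IL-23 family cytokines, was higher in ILC3 in 3 of 3 mice of experiment 1 (log2 fold change 0.54) and lower in the healthy hashtag of experiment 2 (log2 CPM ratio -0.208, counting interval -0.397 to -0.022). Tnfrsf9 (4-1BB), a costimulatory receptor, was higher in 3 of 3 mice (0.71) and lower in that hashtag (-0.508, interval -0.827 to -0.196). The tetraspanin gene Cd81 was lower in 3 of 3 mice (-0.60) and higher in that hashtag (0.198, interval 0.028 to 0.367). The heat shock genes Hspa1a and Hspa1b were lower in 3 of 3 mice (-0.77 and -0.79) and higher in that hashtag (0.350, interval 0.287 to 0.413, and 0.439, interval 0.354 to 0.524). None of these differences between experiments was tested.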

How the results depend on the processing

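DESeq2 called 451 genes in place of 1127, 177 higher and 274 lower in ILC3, each of them also called by edgeR. The mean of CPM per cell tested with limma called 366 genes lower and 580 higher. Leaving out 1 mouse at a time gave 758 to 1153 calls, 301 to 491 genes higher and 457 to 662 lower; the 301 came without mouse 3, and without mouse 1 and mouse 2 there were 491 and 353. Without the replicate block 795 genes were called (338 higher, 457 lower), 794 of them shared, and the block moved no count by over 1.5 times. The same held for upper-quartile factors (1121 calls), no filter (1145), cells with Cd3d or Cd3e UMIs kept in ILC3 (1142) or left out of both classes (1125), and the hashtag of experiment 2 as a further pair (1230). To even the depth, the deeper sum of each mouse was thinned to the other, since in mouse 3 the ILC3 sum was the deeper one; this gave 888 calls. Of 86 called named genes, 70 were called with any single mouse left out, 68 under DESeq2 and 77 without the block, and no called one changed direction under these settings. Areg was not called by DESeq2, nor was Stat3 with the further pair. Of 6708 genes tested the rest were not called, which at 3 pairs does not show that they were alike. The cause of these changes was not tested.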
